A study of Mus musculus with 12 samples.

Results

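Transferred CD4 T cells that had become regulatory T cells (Tregs) were compared with transferred cells of the same origin that had not. The members were the 4 ATAC-seq libraries of transferred cells out of 12 in the series, chosen by their labels, and the 51784 regions obtained by merging their peaks, beside 76882 when all 12 libraries were merged. ATAC-seq marks open chromatin by the places where a transposase can insert, and a peak is a stretch called as open. The donor cells carried 6.5TCR, a transgenic receptor for influenza hemagglutinin (HA), and had been placed in Aire-HA hosts; bone marrow T cells were sorted 14 days later. All mice were Balb/c. Converted cells, here donor Treg, were CD4+ CD3+ T cells of the CD45.2+ donor that were positive for CD25 and LAP. Unconverted cells, here donor Tconv, were the CD25-negative counterpart. All donor cells were therefore CD45.2+ cells from the HA-bearing host, and none was taken before transfer. The remaining 8 libraries were used to follow the differing regions: host Tconv (CD45.1+CD45.2-, CD25-), host pTreg (CD45.1+CD45.2+, CD25+CTLA4+Nrp1-), host tTreg (the same with Nrp1+) and iTreg, induced in culture from wild-type Balb/c cells and sorted as CD25+LAP+. The titles name the host Tconv cells as host WT conventional T cells. Each group had 2 libraries, and nothing in the labels says whether these came from separate animals or from pools. The sort used CD25 and LAP, not Foxp3, so the converted state rests on those surface markers.

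Tregs restrain other T cells. Their identity rests on the transcription factor Foxp3, on high levels of the interleukin-2 receptor and of the checkpoint receptor CTLA4, and on surface capture of latent TGF-beta. They can arise in the thymus or from conventional CD4 cells in the periphery, where antigen, interleukin-2 and TGF-beta act together on the Foxp3 gene. Conventional cells that have not made this change keep open the genes of the naive and resting state, such as Tcf7, Lef1 and Satb1. LAP, the propeptide part of latent TGF-beta, comes from Tgfb1 and is held on the surface by GARP, the product of Lrrc32, and CD25 is the product of Il2ra. Regions at these 3 genes are thus tied to the sort and are no finding between these groups.

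The donor Treg lists held 32234 and 34467 peaks and the donor Tconv lists 47193 and 44350; the other 8 lists held 28394 to 63207. Replicates shared 29759 of 35560 regions (83.7%) in donor Treg and 41792 of 49087 (85.1%) in donor Tconv. Read numbers behind the lists are unknown, and a region without a peak was therefore not measured as closed. Library names carry a number that the labels do not explain, up to 17000 in donor Treg and 42000 or more in donor Tconv. That number and the list length both moved with the group and cannot be told apart from it. Within 1 kb of a gene end, all 7 pan-T markers had a peak in all 4 donor libraries, and 5 of 6 Treg markers did in donor Treg and in donor Tconv alike, Tnfrsf18 being the one without. Of the markers of other cells, donor libraries had a peak at 1 of 2 for CD8 T cells, 1 to 2 of 5 for B cells, 2 to 3 of 3 for plasma cells, 1 of 4 for NK cells, 2 to 3 of 6 for myeloid cells and 3 of 4 for erythroid cells. The defining genes Cd8a, Ms4a1, Pax5, Ncr1, Lyz2, Csf1r, Mpo, Gata1 and Kit had none in any of the 4. Jchain, a plasma cell marker, and Itgam, a myeloid marker, had a peak in both donor Tconv libraries and in neither donor Treg library, Meis1, a stem and progenitor marker, had the reverse, and Cd79a, a B cell marker, had one in 1 library of each group. The part of other cells in the results was not tested. In sorted bulk samples a change in the mix of cells and a change within each cell cannot be told apart.

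Regions open in both converted libraries and no unconverted one are called the donor Treg set below, and their reverse the donor Tconv set. A few of the named regions lay over promoters, and their sequences are shown because they place opposite sets at known gene starts. Foxp1, which encodes a forkhead factor of T cell quiescence, has a pair of start sites of which one lay in a region of the donor Tconv set and another in a region of the donor Treg set. The promoters of Meis1, a homeobox factor gene, and Ebi3, which encodes a cytokine subunit of Treg-derived interleukin-35, lay in regions of the donor Treg set, and that of P4ha2, a collagen prolyl hydroxylase gene, in a region of the donor Tconv set. The promoter of Ctla4 lay in a region open in all 4 libraries whose peak was wider in donor Treg. Each sequence holds the 250 bases before a start, 5′ to 3′ on the gene's strand, from RefSeq (GRCm38.p6, the assembly of mm10). Capitals mark a match to the Runx motif TGTGGT on either strand.
Foxp1, chr6:99266516-99266765, minus strand, donor Tconv set: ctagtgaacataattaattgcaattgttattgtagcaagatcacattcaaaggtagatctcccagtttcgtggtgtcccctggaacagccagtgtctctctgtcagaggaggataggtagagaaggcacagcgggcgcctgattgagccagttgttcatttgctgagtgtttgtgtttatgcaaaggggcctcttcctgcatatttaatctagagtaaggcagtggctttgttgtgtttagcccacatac
Foxp1, chr6:99028299-99028548, minus strand, donor Treg set: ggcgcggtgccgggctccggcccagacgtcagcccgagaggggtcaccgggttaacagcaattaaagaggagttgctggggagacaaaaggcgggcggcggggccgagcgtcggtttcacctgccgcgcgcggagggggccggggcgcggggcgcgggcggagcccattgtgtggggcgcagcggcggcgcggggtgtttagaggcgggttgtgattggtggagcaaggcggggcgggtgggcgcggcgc
Meis1, chr11:19018970-19019219, minus strand, donor Treg set: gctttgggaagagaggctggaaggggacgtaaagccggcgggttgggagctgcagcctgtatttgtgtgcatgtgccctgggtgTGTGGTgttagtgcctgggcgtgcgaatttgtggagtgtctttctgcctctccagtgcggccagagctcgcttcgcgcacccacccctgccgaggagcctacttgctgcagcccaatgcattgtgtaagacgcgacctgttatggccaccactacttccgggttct
Ebi3, chr17:55952373-55952622, plus strand, donor Treg set: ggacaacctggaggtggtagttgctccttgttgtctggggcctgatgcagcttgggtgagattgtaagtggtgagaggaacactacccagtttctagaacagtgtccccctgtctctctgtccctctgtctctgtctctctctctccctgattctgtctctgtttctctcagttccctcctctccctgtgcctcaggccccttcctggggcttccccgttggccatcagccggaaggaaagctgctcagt
P4ha2, chr11:54100674-54100923, plus strand, donor Tconv set: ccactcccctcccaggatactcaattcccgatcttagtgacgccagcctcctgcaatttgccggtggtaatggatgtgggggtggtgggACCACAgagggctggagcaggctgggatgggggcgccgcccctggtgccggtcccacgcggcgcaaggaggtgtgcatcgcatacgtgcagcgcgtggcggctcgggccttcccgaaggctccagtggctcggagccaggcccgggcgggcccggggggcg
Ctla4, chr1:60908775-60909024, plus strand, wider in donor Treg: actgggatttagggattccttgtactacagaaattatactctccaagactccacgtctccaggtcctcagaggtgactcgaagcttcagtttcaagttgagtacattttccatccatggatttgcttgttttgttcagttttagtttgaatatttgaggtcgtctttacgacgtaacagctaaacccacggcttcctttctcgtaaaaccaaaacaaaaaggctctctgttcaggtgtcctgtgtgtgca

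In these windows the Runx motif was found at Meis1 and P4ha2 only, and the AP-1 (TGANTCA), STAT (TTCNNNGAA), forkhead (TGTTTAC) and TCF/LEF (ATCAAAG) motifs were found in none of the 6. Both strands were searched, and no 2 matches overlapped. Of all 32851 promoters of the table, 14.0% held the Runx motif, 6.75% AP-1, 7.02% STAT, 3.17% forkhead and 3.21% TCF/LEF. The letters alone therefore do not set these 6 promoters apart, and a window without a match says nothing of a factor.

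The Foxp1 start in the donor Tconv set lay in chr6:99265215-99266723, where peaks covered 1509 and 1430 bp in donor Tconv and none in donor Treg. Host Tconv had 938 and 1484 bp there and iTreg 1478 and 1506 bp, while all 4 host Treg libraries had no peak. The other start lay in chr6:99027931-99029053, with 1123 and 1002 bp in donor Treg and no peak in donor or host Tconv. There host tTreg had 913 and 1013 bp, iTreg the whole 1123 bp of the region in each library, and host pTreg 1122 bp in 1 library and no peak in the other. Here and below, peaks of host and iTreg libraries were counted only inside regions merged from the donor libraries. A value equal to the region's width is thus a ceiling, and the peak may reach further. Peaks at the pair thus differed between converted and unconverted cells in all 4 donor libraries, and iTreg had peaks at both.

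Regions present in only one kind of donor cell were far more often those of unconverted cells. The donor Treg set held 1277 regions (2.47% of 51784). The donor Tconv set held 10308 (19.9%). Another 27736 regions were open in all 4 libraries and 12463 in some other mixture. With each list held to its 28394 widest peaks, as many as the shortest of the 12 lists holds, the sets held 2794 (7.87% of 35523) and 3379 (9.51%). The donor Treg share of the differing regions was 11.0% with all peaks and 45.3% with equal list lengths, so the excess of donor Tconv regions moved with list length. Of the 1277 donor Treg regions 755 (59.1%) were differing in the same direction with equal lengths, and of the 10308 donor Tconv regions 2518 (24.4%). Holding all 4 lists to the length of the shortest of them gave 3232 and 3848, and keeping peaks of 300 bp or more gave 839 and 7772. Leaving out donor Treg replicate 1 gave a donor Treg set of 2266. With 2 libraries against 2 no single region can reach a p below 1 in 3, so both sets are described without a test.

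Both sets were narrower than shared regions and lay away from gene ends. The median merged width was 340 bp in the donor Treg set and 341 bp in the donor Tconv set, against 863 bp for regions in all 4 libraries. With equal list lengths these medians were 366, 587 and 1027 bp, so the sets differed in width there. Within 1 kb of a gene end lay 7.13% of the donor Treg set (95% Wilson interval 5.84 to 8.67), 6.43% of the donor Tconv set and 36.2% of regions in all 4 libraries. Gene bodies held 56.7% and 57.6% of the differing sets. By chromosome, the donor Treg set made up 3.94% of regions on chromosome 13 and 3.62% on chromosome 1, but 1.37% on X.

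The sets were followed in the 8 libraries that were not used to define them. Of the 1277 donor Treg regions, host pTreg carried 79.1% and 70.8%, host tTreg 61.7% and 87.7%, iTreg 43.9% and 48.2%, and host Tconv 3.13% and 7.99%. With equal list lengths iTreg stood at 25.7% and 25.6% and host Tconv at 16.4% and 11.5%, with host Tregs at 67.7% to 79.7%. With all peaks, all 6 Treg libraries lay above both host Tconv libraries, with means of 65.2% and 5.56% (two-sided exact permutation test, p = 0.0357, the smallest that 28 splits allow; 0.0714 after Benjamini-Hochberg adjustment over 4 tests). The difference was 59.7 percentage points with all peaks and 44.5 with equal list lengths (exact permutation p = 0.0357). The exact permutation p was 0.143 without either host Tconv library, and 0.0667 without iTreg, again the smallest each of these designs allows. Names of host Treg and host Tconv libraries also hold different codes that the labels do not explain (DR31 and BW13, the latter shared with the donor libraries), and the difference between these groups cannot be told apart from whatever the codes stand for.

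Of the 10308 donor Tconv regions, host Tconv carried 55.8% and 83.3%, host pTreg 23.4% and 10.1%, and host tTreg 3.02% and 12.7%. The iTreg libraries carried 68.7% and 73.3%, as high as host Tconv, and they also had the longest lists. The means were 31.9% in the 6 Treg libraries and 69.5% in host Tconv, which did not pass (exact permutation p = 0.25, adjusted 0.25). With equal list lengths the difference was -54.7 percentage points (exact permutation p = 0.0357), and iTreg stood at 46.5% and 47.6%, below both host Tconv libraries at 72.7% and 84.2%.

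**Figure D1:**
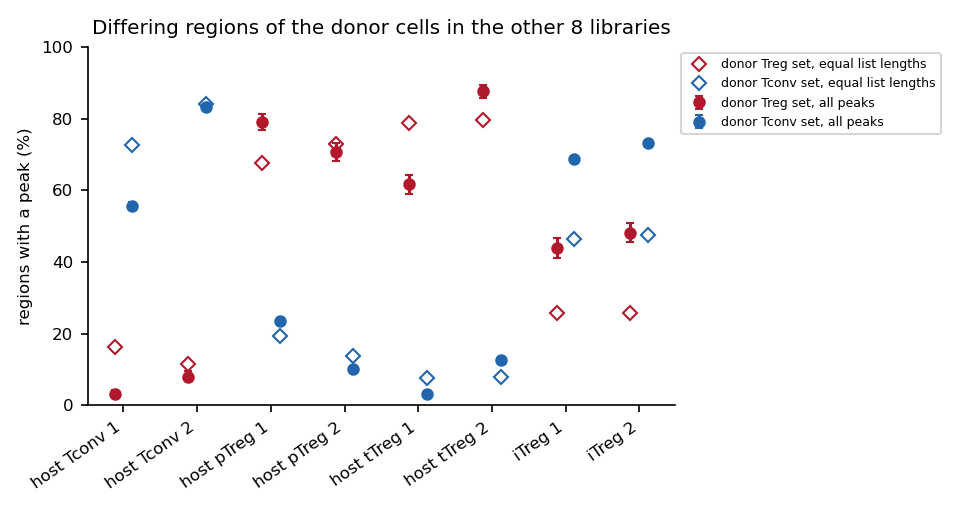
Percent of the donor Treg set (red) and donor Tconv set (blue) that had a peak in each of the other 8 libraries; filled points are all peaks with 95% Wilson intervals, which cover counting error only, and open diamonds are sets and libraries held to equal list lengths. Red points lie between 61.7% and 87.7% in the 4 host Treg libraries and at or under 7.99% in host Tconv, and iTreg lies between them.

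Region by region, 664 of the 1277 donor Treg regions (52.0%) had a peak in all 4 host Treg libraries and 1155 (90.4%) in neither host Tconv library. Those in all 4 host Treg libraries and neither host Tconv library split between 278 that both iTreg libraries carried and 299 that neither did. In none of the 8 libraries were 48. Of the 10308 donor Tconv regions, 3809 (37.0%) had a peak in both host Tconv libraries and no host Treg library. Of these, 2492 were in both iTreg libraries and 952 in neither. With equal list lengths the order turned: of 1731 such regions of the donor Tconv set 670 were in both iTreg libraries and 836 in neither, and of the donor Treg set 307 were in both and 829 in neither. How many of these regions the cultured cells had thus moved with list length.

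Where all 4 donor libraries had a peak, its width could be tested. The base pairs covered by peaks in each region were put on a log2 scale, each library was centred on its median, and limma was used with Benjamini-Hochberg adjustment over 27736 regions. At 0.05, peaks were wider in donor Treg at 1105 regions (3.98%) and narrower at 1498 (5.4%). A width is the length of the stretch called as open, not its height. The median change over all regions was 0.10 with centring and -0.25 without, and without centring the split was 232 wider and 4309 narrower, so widths are relative to the other shared regions. Few calls were left when either donor Tconv library was left out: without replicate 1 there were 5 wider and 0 narrower (3135 and 2310 at an unadjusted p under 0.05), and without replicate 2 there were 4 and 1 (4726 and 2537). Without donor Treg replicate 2 there were 2022 wider and 2912 narrower, and without replicate 1 1509 and 2425. Lists of equal length gave 341 and 1178, and quantile normalisation 691 and 1365.

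In libraries that the width test had not used, 726 of the wider and 851 of the narrower regions had a peak in all 12. Base pairs beyond the region merged from the donor libraries were not counted. The median centred log2 width of the wider regions was 0.43 and 0.50 in host pTreg, 0.58 and 0.50 in host tTreg, 0.18 and 0.19 in iTreg, and 0.03 and 0.08 in host Tconv. The 6 Treg libraries all lay above host Tconv by this measure (mean difference 0.34, exact permutation p = 0.0357, adjusted 0.0714, which did not pass 0.05). The narrower regions stood at -0.32 and -0.54 in host pTreg and -0.69 and -0.60 in host tTreg, but at 0.05 and 0.10 in iTreg, beside -0.03 and 0.23 in host Tconv (mean difference -0.44, exact permutation p = 0.214, adjusted 0.25). The cultured Tregs thus lay with host Tconv at the regions that were narrower in converted donor cells.

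Treg signature genes were more often wider in converted cells than regions at large, and by presence they were divided. In the Treg core list (20 genes), 41 of 96 shared regions were wider in donor Treg and 2 narrower, 42.7% against 3.98% of all regions, with a median log2 change of 0.47 against 0.10. Most of the 96 did not pass, among them every shared region of Il2ra, Itgae and Capg. Without centring 13 were wider and 4 narrower, and without donor Tconv replicates 1 and 2 in turn 4 and 3 were wider and 0 narrower. By presence, the list had 23 regions in the donor Treg set and 18 in the donor Tconv set of 174 (13.2% and 10.3%, against 2.47% and 19.9%), and 42 and 8 of 149 with equal list lengths. Il2ra and Lrrc32, tied to the sort, gave 4 and 3 of the 23 and none of the 18; without them the counts were 16 and 18 of 157, and 35 and 8 of 133 with equal list lengths, while 39 of 87 shared regions were wider (44.8%) and 2 narrower. With all peaks, 8 of the 20 genes had more regions in the donor Treg set, 8 the reverse and 4 as many of both. The list's net of regions within 10 kb of a gene end was -3.

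At Foxp3 itself no region was in the donor Treg set. The region chrX:7582796-7584970 in the gene body was covered by 1422 and 2175 bp of peak in donor Treg and 391 and 431 bp in donor Tconv (log2 change 2.46 ± 0.20 SE, limma adjusted p = 0.00466). It was at 1102 to 2113 bp in the 4 host Treg libraries and 859 and 832 bp in iTreg, and had no peak in host Tconv. The region chrX:7592924-7596817, across the end of Foxp3 and assigned to its neighbour Ccdc22, was at 2698 and 3894 bp in donor Treg and 248 and 209 bp in donor Tconv, the largest of the 1105 wider calls (log2 change 4.19 ± 0.17 SE, limma adjusted p = 0.00205). Neither host Tconv nor iTreg libraries had a peak there, while host Tregs had 714 to 1679 bp. In reverse, chrX:7586325-7586875 had 548 and 455 bp in donor Tconv and no peak in donor Treg or any host Treg library, and chrX:7587566-7587865 had 298 and 273 bp in donor Tconv and none in any of the 8 Treg libraries. Converted cells thus had wider peaks at Foxp3 and also lacked 2 that unconverted cells had. Unconverted cells had narrow peaks at the 2 shared regions where host Tconv had none.

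Ctla4, the checkpoint receptor gene, was wider at 5 of 7 shared regions. Its promoter region chr1:60908531-60914231 was at 5341 and 5701 bp in donor Treg and 1317 and 823 bp in donor Tconv (log2 change 2.76 ± 0.18 SE, limma adjusted p = 0.00351). Host Treg libraries ranged from 1580 to 5351 bp, iTreg from 1422 to 2156 and host Tconv from 647 to 880. The host Treg libraries were sorted on CTLA4, so their level is tied to the sort, while the donor cells were not. By presence Ctla4 had 1 region in the donor Treg set and 3 in the donor Tconv set, and 4 and 1 with equal list lengths. Of these 3, chr1:60902427-60902988 had 456 to 562 bp in the host Treg libraries and no peak in host Tconv or iTreg. The others had no peak in any host Treg library.

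Ikzf2, which encodes Helios, a factor of stable Tregs, had the most wider regions among the Treg core genes, 8 of 11 shared. The region chr1:69543999-69545872 was at 1739 and 1874 bp in donor Treg and 492 and 510 bp in donor Tconv (log2 change 2.21 ± 0.10 SE, limma adjusted p = 0.00224). In iTreg it was at 438 and 497 bp, as low as in donor Tconv. Ikzf2 also had 6 regions in the donor Treg set and 2 in the donor Tconv set of 23, and 8 and 3 of 22 with equal list lengths. Of these 6, the region chr1:69691918-69692813 outside the gene had 857 and 834 bp in donor Treg. Peaks of each iTreg library covered the whole 896 bp of this region. The other 5 had no peak in iTreg, and none of the 6 had one in host Tconv. The donor Tconv region chr1:69653384-69653852 was an exception to the split by cell type. It had 464 and 448 bp in donor Tconv and no peak in donor Treg. Peaks covered its whole 469 bp in all 4 host Treg libraries and in host Tconv replicate 2, while host Tconv replicate 1 had none.

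**Figure D2:**
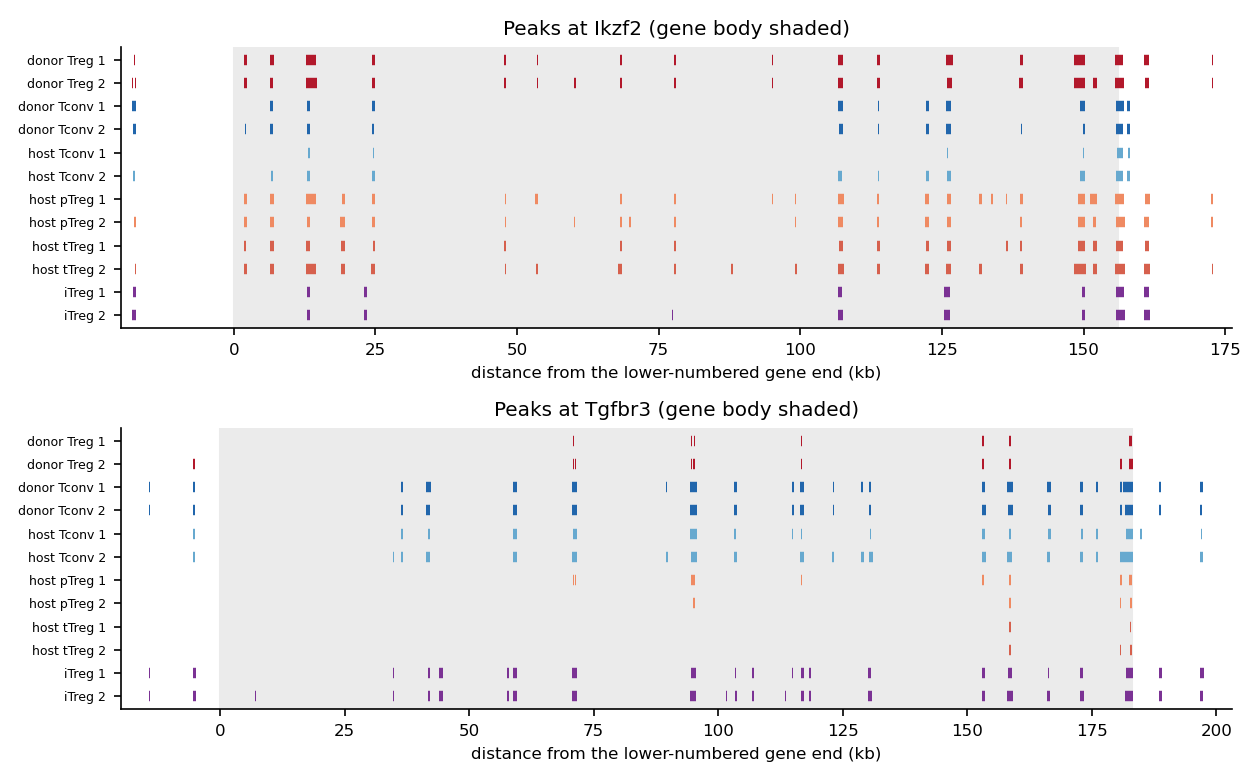
Peaks of the 12 libraries at Ikzf2 and Tgfbr3, drawn to scale by distance in kb from the lower-numbered end of the gene, with the gene body shaded. Ikzf2 shows 6 regions of the donor Treg set. Of the 14 regions of the donor Tconv set at Tgfbr3, chr5:107061549-107062306 and chr5:107063869-107064203 lie beyond the drawn stretch. The narrower shared region chr5:107078345-107080598 also lies beyond it.

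The other Treg core genes varied, and their counts by presence moved with list length. With equal list lengths the donor Treg and donor Tconv sets held 4 and 0 regions of Nrp1 and 4 and 1 of Il10. Nt5e and Entpd1 then had 0 in each set. The counts that follow are with all peaks. Nrp1, a surface receptor of thymic Tregs, was wider at 5 of 13 shared regions and had 0 regions in the donor Treg set and 1 in the donor Tconv set; its promoter region had 2269 and 2703 bp in donor Treg and 1291 and 1150 bp in donor Tconv (log2 change 1.38 ± 0.09 SE, limma adjusted p = 0.00388). Il10, which encodes a suppressive cytokine, was wider at 4 of 5 and had 1 and 2 by presence, and Tigit, an inhibitory receptor gene, was wider at 3 of 6 and had 1 and 0. Socs2, a target of STAT5, had 2210 and 2688 bp at its promoter against 1063 and 1103 bp (log2 change 1.53 ± 0.11 SE, limma adjusted p = 0.00401). Itgae, which encodes the integrin CD103, had 3 regions in the donor Treg set and none in reverse, and none of its 5 shared regions passed the width test. Nt5e and Entpd1, which encode the enzymes CD73 and CD39 that turn extracellular ATP into adenosine, had 0 and 3 and 0 and 2 by presence, and each was wider at 1 shared region. Izumo1r had 0 and 2 and Il2rb, an interleukin-2 receptor chain gene, 0 and 1, each with 1 wider and 1 narrower region. Swap70 had 2 and 0 and was wider at 3 of 5. Ikzf4 and Gpr83 had 1 and 0 each, with 2 and 1 wider regions of 3. Tnfrsf4 and Tnfrsf18 were each wider at their only region, and Capg had no differing region and no called width.

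The sort-linked genes had these values. Il2ra had 4 regions in the donor Treg set of 11, at 397 to 879 bp, none in reverse, and none of its 6 shared regions passed the width test (0 of 6). Lrrc32 had 3 in the donor Treg set, including chr7:98491592-98493601 with 1874 and 2010 bp, and its promoter region chr7:98488277-98490746 was at 2424 and 2461 bp in donor Treg and 635 and 660 bp in donor Tconv (log2 change 2.27 ± 0.10 SE, limma adjusted p = 0.00205). In both iTreg libraries, also sorted on LAP, peaks covered the whole 2470 bp of that region. At Tgfb1 the promoter region was at 3711 and 3730 bp against 3831 and 3690 bp (log2 change 0.34 ± 0.09 SE, limma adjusted p = 0.0596). Il2ra and Lrrc32 thus had regions of the donor Treg set, and Tgfb1 had none and no called width change.

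The list of 16 latent TGF-beta genes had 10 regions in the donor Treg set and 27 in the donor Tconv set of 147 (6.8% and 18.4%, against 2.47% and 19.9% of all regions), and 7 wider and 16 narrower of 77 (9.09% and 20.8%, against 3.98% and 5.4%). Lrrc32 gave 3 of the 10 and 2 of the 7, and Tgfbr3 alone gave 14 of the 27 and 6 of the 16. Itgb8 and Itgav encode the subunits of an integrin that frees TGF-beta from its latent form. Itgb8 had 4 regions in the donor Treg set and none in reverse, all in its body and each also differing with equal list lengths, and all 4 had peaks in every host Treg library and in neither host Tconv library. Its promoter region was at 1297 and 1381 bp in donor Treg and 721 and 748 bp in donor Tconv (log2 change 1.22 ± 0.10 SE, limma adjusted p = 0.00486). Itgav was wider at 3 of 5 shared regions, most at chr2:83700442-83701409 with 899 and 968 bp against 319 and 191 bp (log2 change 2.28 ± 0.22 SE, limma adjusted p = 0.00594).

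Among the receptors, Tgfbr3, which encodes a co-receptor of TGF-beta, had 14 regions in the donor Tconv set of 26, none in reverse, and 6 of 7 shared regions narrower. The region chr5:107078345-107080598 was at 318 and 352 bp in donor Treg and 2254 and 2160 bp in donor Tconv (log2 change -2.36 ± 0.10 SE, limma adjusted p = 0.00205). Host Tregs had 188 to 364 bp there, host Tconv 2057 and 2205, and iTreg 1619 and 1801, so the cultured cells stood with conventional cells. Tgfbr2, the ligand-binding receptor gene, had 1 region in each differing set and was narrower at 3 of 17 shared regions. Tgfbr1, which encodes its signalling partner, had 1 in the donor Treg set and 0 in reverse; Smad7, the inhibitory Smad gene, had 0 and 2 and was narrower at 4 of 7. Tgfbr1, Smad2 and Smad4 had no called width change.

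Genes of the naive and resting state were more often narrower in converted cells than regions at large. By presence, the list of 12 genes had 8 regions in the donor Treg set and 60 in the donor Tconv set of 238 (3.36% and 25.2%), against 2.47% and 19.9% of all regions. Lists of equal length gave 7 and 38 of 190, beside 7.87% and 9.51% of all regions. Of 117 shared regions 23 were narrower (19.7% against 5.4% of all) and 3 wider, with a median log2 change of -0.25. Lef1, a partner of Tcf7, had 0 and 8 of 21 regions and Satb1, a chromatin organiser gene, 0 and 7 of 18. Bach2, a repressor that holds back effector genes, had 2 and 10 of 47, and Foxp1 4 and 24 of 70, the most regions of any named gene.

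Tcf7 showed the change through widths. It was narrower at 4 of 6 shared regions, and a stretch across the gene and its end, chr11:52270908-52283693, was covered by 5509 and 5239 bp in donor Treg and 12675 and 12758 bp in donor Tconv (log2 change -0.89 ± 0.12 SE, limma adjusted p = 0.0146). Host Tconv had 11468 and 12786 bp, host Tregs 1119 to 2946 and iTreg 2036 and 3797. At Lef1, chr3:131125552-131126863 was at 189 and 249 bp in donor Treg and 1312 and 1255 bp in donor Tconv (log2 change -2.21 ± 0.16 SE, limma adjusted p = 0.00401), with no peak in any host Treg library. Ccr7, the lymph node homing receptor gene, had 492 and 468 bp at chr11:99142540-99148805 in donor Treg against 6172 and 2774 bp in donor Tconv (log2 change -2.75 ± 0.31 SE, limma adjusted p = 0.00782), although the Tconv pair differed widely. Il7r, which encodes the interleukin-7 receptor and is low in most Tregs, was narrower at neither of its 2 shared regions. In 1 of them the call was wider (log2 change 0.40 ± 0.08 SE, limma adjusted p = 0.0402), but only relative to other shared regions. Its peaks covered 1370 and 1531 bp in donor Treg and 1460 and 1353 bp in donor Tconv. The other region, at 3341 and 3929 bp against 4032 and 3912 bp, was not called.

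**Figure D3:**
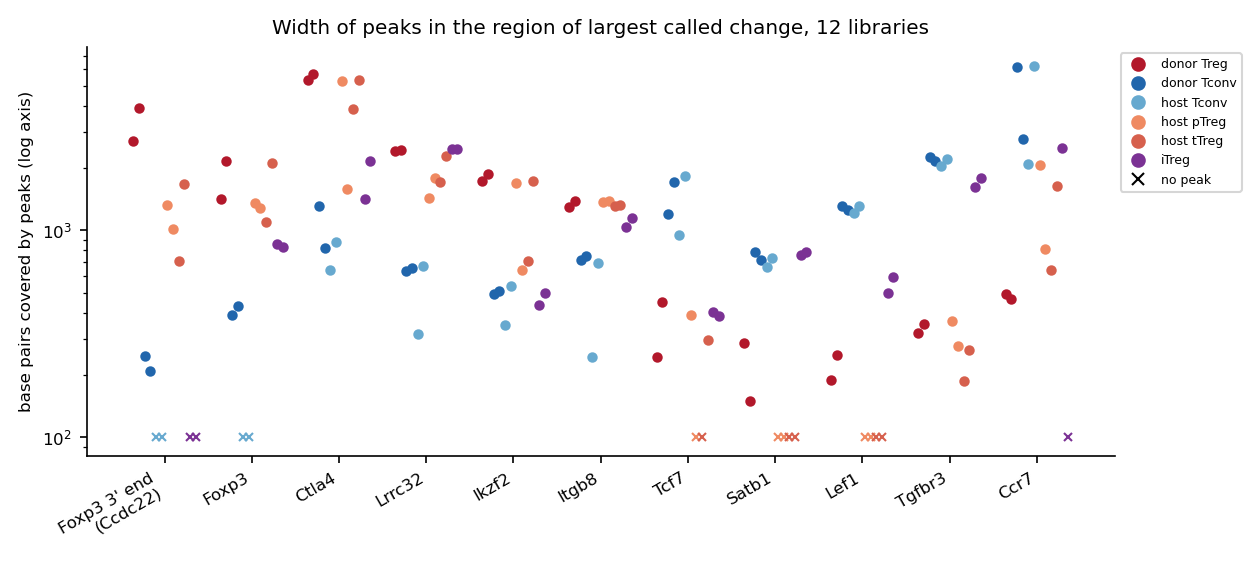
Base pairs covered by peaks (log axis) in each of the 12 libraries at the region of largest called width change at 11 genes picked after their values were seen. Crosses mark libraries with no peak. Values of host and iTreg libraries stop at the width of the region merged from the donor libraries. The first 6 genes are wider in donor Treg and the last 5 narrower, and iTreg lies near donor Tconv at Ikzf2 and Tgfbr3 but not at Lrrc32 or Itgb8.

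Genes of effector and tissue Tregs also had a higher share of regions in the donor Treg set than all regions. The list of 15 genes had 19 in the donor Treg set and 9 in the donor Tconv set of 115 (16.5% and 7.83%, against 2.47% and 19.9%). Lists of equal length gave 26 and 7 of 94 (27.7% and 7.45%, against 7.87% and 9.51%). By width 11 were wider and 2 narrower of 59 (18.6% and 3.39%, against 3.98% and 5.4%), but with equal list lengths none of 41 passed as wider and 1 as narrower. Il1rl1, which encodes the interleukin-33 receptor, had 3 in the donor Treg set and 1 in reverse, and Klrg1, a marker of matured Tregs, 3 and 1. At Klrg1, chr6:122262505-122263074 was at 570 and 538 bp in donor Treg and 233 and 198 bp in donor Tconv (log2 change 1.72 ± 0.17 SE, limma adjusted p = 0.0059). Areg, which encodes the tissue repair factor amphiregulin, had 2 and 0, Rora 6 and 4, and Ebi3 its only region, at 242 and 279 bp over the promoter shown above. Gata3, Ccr8 and Ccr4 had no differing region and no called width.

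Helper cytokine genes were the list with the highest share of donor Tconv regions, 23 of 67 and none in the donor Treg set, 34.3% against 19.9% of all regions, though with equal list lengths it was 6 against 4 of 41 (14.6% and 9.76%, against 9.51% and 7.87%). Il21, which encodes a follicular helper cytokine, had 6 and Csf2, the GM-CSF gene, 5. Ifng had 4, Tbx21 and Eomes 3 each. Proximal T cell receptor signalling stood near all regions by presence with all peaks, with 3 in the donor Treg set and 34 in the donor Tconv set of 155 (1.94% and 21.9%, against 2.47% and 19.9%). Lists of equal length gave 7 and 18 of 126 (5.56% and 14.3%, against 7.87% and 9.51%). By width it had 16 narrower and 1 wider of 85 (18.8% and 1.18%, against 5.4% and 3.98%). Lck, the kinase that starts receptor signalling, was narrower at its promoter region (682 and 965 bp against 2293 and 2035 bp, log2 change -1.06 ± 0.15 SE, limma adjusted p = 0.0146). Fyn had 8 regions in the donor Tconv set and Prkcq 4 narrower of 18.

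Of the remaining lists, costimulatory receptors and homing genes stood furthest from all regions by width. Interleukin-2 and STAT5 genes had 7 in the donor Treg set and 9 in the donor Tconv set of 71 (9.86% and 12.7%, against 2.47% and 19.9% of all regions). Il2ra gave 4 of the 7, and without it the counts were 3 and 9 of 60 (5% and 15%). By width 3 were wider and 5 narrower of 47 (6.38% and 10.6%, against 3.98% and 5.4%), and Il2 itself was narrower at 2 of 3. Costimulatory and inhibitory receptors had 4 and 11 of 107 (3.74% and 10.3%), and 13 wider and 3 narrower of 69 (18.8% and 4.35%, against 3.98% and 5.4%). Ctla4 gave 5 of the wider regions and Tigit 3. Homing genes had 6 and 12 of 99 (6.06% and 12.1%), with 3 wider and 9 narrower of 62 (4.84% and 14.5%), of which Ccr7 gave 3 and S1pr1 2 of the narrower. T cell receptor induced genes had 2 and 9 of 85 (2.35% and 10.6%), with 3 wider and 3 narrower of 59. Anergy genes had 1 and 10 of 82 (1.22% and 12.2%), with 3 and 2 of 56. The cofactors of Foxp3 had 5 and 28 of 156 (3.21% and 17.9%), with 4 and 2 of 78. The T cell receptor induced, anergy and cofactor lists had shares of called widths near those of all regions. With all peaks their donor Tconv shares were below the 19.9% of all regions. With equal list lengths the donor Treg and donor Tconv shares of all regions were 7.87% and 9.51%. Interleukin-2 and STAT5 genes then had 10.6% and 7.58%, costimulation 14% and 5.38%, and homing 6.1% and 7.32%. T cell receptor induced genes had 8% and 6.67%, anergy 5.63% and 7.04%, and cofactors 10.3% and 9.48%. Egr2, Egr3, Nr4a2 and Nr4a3 had no called width, and Nr4a1 had 1 wider of 5.

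**Figure D4:**
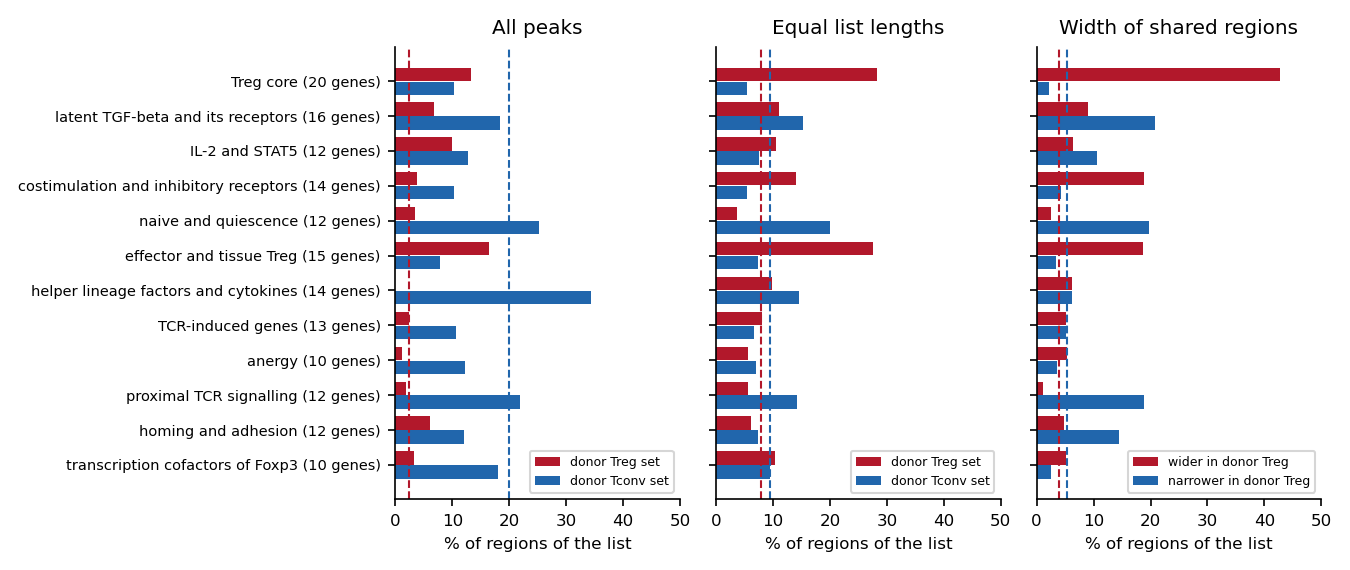
Percent of each list's regions in the donor Treg set (red) and donor Tconv set (blue) with all peaks and with equal list lengths, and percent of shared regions wider (red) or narrower (blue) in donor Treg; dashed lines are the percent over all regions. The Treg core list reaches 42.7% wider against 3.98% for all regions, and the naive list 19.7% narrower against 5.4%.

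Counted by gene, 474 of 14143 genes with a region (3.35%) had more regions of the donor Treg set than of the donor Tconv set, and 4910 (34.7%) the reverse; with equal list lengths 1504 and 1765 of 12759 did. The 12 genes with the largest net in donor Treg under both were led by Rad51b, a homologous recombination gene, with 8 in the donor Treg set and 2 in reverse, and 10 and 0 with equal lengths. It was also wider at 5 of 19 shared regions. Lamc1, a laminin chain gene, had 5 and 0 and was wider at 3 of 4, and Atxn1 5 and 0. Emsy, which lies beside Lrrc32, had 6 and 1, Hdac9, a class IIa deacetylase gene, 5 and 1, Samsn1 4 and 0 and Sh3rf1 5 and 1. Meis1 and Ceacam15 had 3 and 0 each. At Hdac9 no peak of the 5 was found in host pTreg and 3 were in a single host tTreg library, whereas at Lamc1 all 5 were in both host pTreg libraries. None of the 5 at Hdac9 was differing with equal list lengths, where the gene's 6 and 0 came from other regions.

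In the other direction Foxp1 and Tgfbr3 led. Khdrbs3, an RNA-binding protein gene, had 13 in the donor Tconv set of 17 and no region in all 4 libraries, and none of the 13 had a peak in a host Treg library. Cox10 and Maml2, a Notch coactivator gene, had 13 each, Sgms1 13 against 1, Myo10 12, Pakap 10 against 1, Dock9 8 and P4ha2 7. Cox10 was narrower at 3 of 7 shared regions, Sgms1 at 4 of 20, and Maml2 at 0 of 10.

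**Figure D5:**
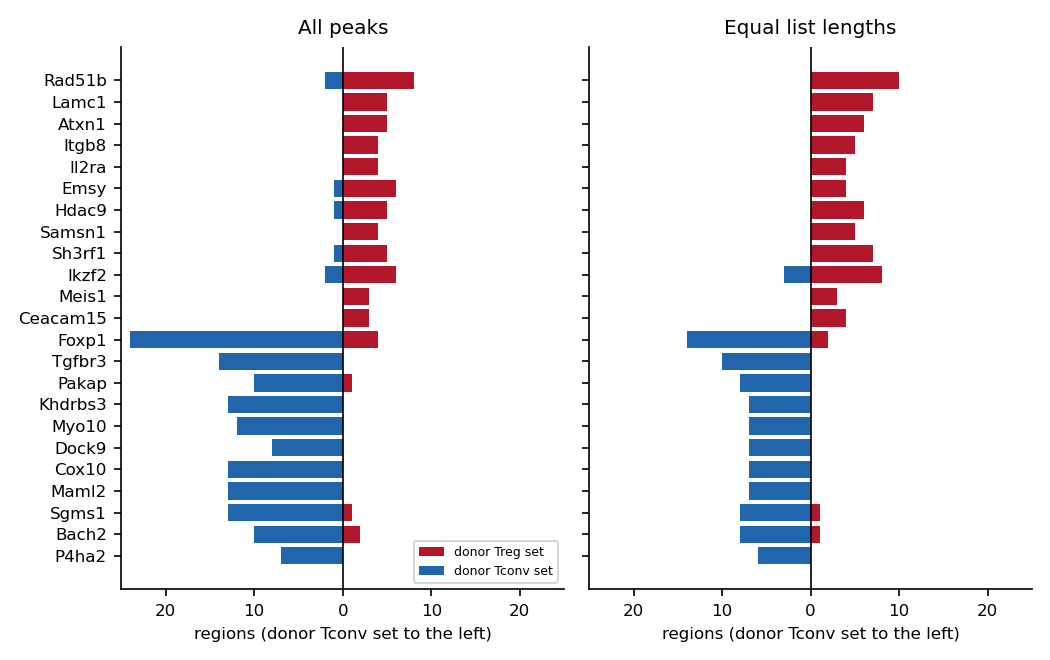
Number of regions in the donor Treg set (red, to the right) and donor Tconv set (blue, to the left) at the genes of largest net in each direction, with all peaks and with equal list lengths. Foxp1 reaches 24 to the left with all peaks and 14 with equal lengths, and Rad51b 8 and 10 to the right.

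Shared regions at genes with many differing regions were more often called in the direction of those regions than shared regions at large, although most were not called. Of all 25793 shared regions assigned to a gene, 3.73% were wider and 5.35% narrower, with a median log2 change of 0.11. At the 26 genes with a net of 3 or more regions of the donor Treg set, 38 of 142 shared regions (26.8%) were wider and 2 (1.41%) narrower, with a median log2 change of 0.43. At the 800 genes with a net of 3 or more regions of the donor Tconv set, 95 of 3627 (2.62%) were wider and 392 (10.8%) narrower, with a median of -0.03. Both measures come from the same 4 libraries. With all peaks, Foxp3, Ctla4, Nrp1 and Il10 had more regions of the donor Tconv set than of the donor Treg set and yet had wider shared regions. With equal list lengths this held only at Foxp3, with 0 regions in the donor Treg set and 1 in the donor Tconv set. Ctla4 then had 4 and 1, Nrp1 4 and 0, and Il10 4 and 1.

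The widest differing regions and the remaining large width changes lay mostly outside the lists. In the donor Treg set these were at Vps37b (1489 and 2300 bp), Lrrc32, Dad1 (1568 and 1561 bp), Tnfrsf26 and Traf1, a TNF receptor adaptor gene (1411 and 1458 bp). In the donor Tconv set the widest was chr11:3140383-3148909 at Sfi1, with 8494 and 8508 bp in donor Tconv, 8483 and 8465 bp in host Tconv, and no peak in any of the 8 Treg libraries. Abcb9 (2953 and 2944 bp), Mllt6, Timm8a2 and a second region at Dad1 followed. Dad1 lies beside the T cell receptor alpha locus, and its pair of regions took opposite directions: chr14:54203350-54204952 was in donor Treg and host Treg libraries, and chr14:54217690-54220172 was in donor Tconv (2054 and 2139 bp) and iTreg (1368 and 1738 bp) but in neither host Tconv library. Among the 10 largest called widths, Sp110 (log2 change 3.22) was as wide in host Tconv, at 2310 and 940 bp, as in donor Treg at 1945 and 1272 bp. Med15 (2.55), 4931408C20Rik (2.56) and a region with no gene on chromosome 7 (2.39) were also wider. The largest narrower calls included Atp8b4 (-2.77), Ccr7, Lrch1 (-2.56), Eipr1 (-2.53), Osbpl6 (-2.51), Slc37a1 (-2.46), Plxdc1 (-2.46), Ccdc115 (-2.44) and Trp53rkb (-2.39). No peak in any list was narrower than 150 bp, and both donor Treg libraries stood at that width at Lrch1, Osbpl6, Plxdc1 and Trp53rkb, as both donor Tconv libraries did at Med15 and at the region on chromosome 7. Single libraries stood at 150 bp at 4931408C20Rik (1 donor Tconv library) and Slc37a1 (1 donor Treg library). The size of these changes depends on that floor.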

How the data were processed

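Each library came with 1 deposited peak list in BED format. The submitters' processing notes name Bowtie2 2.3.3, HOMER 4.10, bedtools and the mm10 build. The sources used here do not give their roles and settings, any shift of reads for the transposase, or what the lists were intersected with. The deposited score is 1000 for every peak and was not used. The deposited coordinates are the measurement.

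Groups and replicate numbers came from the sample titles; the descriptions number the donor Treg libraries 2 and 3, not 1 and 2. Replicates may be technical, so p-values measure only the spread between these libraries. Peaks sharing at least 1 bp were merged. For host and iTreg libraries, only base pairs inside the regions merged from the donor libraries were counted. Each region was assigned to the gene containing its midpoint, otherwise to the closest gene end within 50 kb (RefSeq, GRCm38.p6, without strand); 90.8% were assigned. Gene promoters were matched by symbol. Widths were tested with limma 3.58.1 (trend) in R 4.3.3; other steps used Python 3.11.15, pandas 2.3.3 and scipy 1.17.1. In data simulated for the width comparison over 27736 regions, 0 of 200 changes of 1.5-fold, 43 of 2-fold, 172 of 3-fold and 184 of 4-fold were recovered, with 0, 0, 16 and 17 false calls. Shares have 95% Wilson intervals, for counting error only. Named genes are the 12 per direction with the largest net under both list lengths, the 10 largest width calls and 5 widest differing regions per direction, and members of the 12 lists; some items are not reported here. The members, lists and tests were chosen with earlier results of these data known. Alternatives were other list lengths, peak widths, overlaps, scalings, gene assignments, a replicate block and leaving out libraries.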

Additional observations from a re-analysis of the deposited data

How the results depend on the processing

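The depth behind the lists is unknown, and 2 libraries a group limit every comparison. The donor Treg and donor Tconv counts of 1277 and 10308 became 2794 and 3379 with equal list lengths, 3232 and 3848 at the length of the shortest of the 4 lists, and 839 and 7772 with peaks of 300 bp or more. Overlaps of 100 bp gave 1255 and 10191. Leaving out 1 library gave 1532 to 2266 and 11475 to 14682. Wider and narrower calls (1105 and 1498) were 232 and 4309 without centring, 691 and 1365 under quantile normalisation, 1235 and 1452 over regions with 1 peak per library, 341 and 1178 with equal list lengths, and 4 to 2022 and 0 to 2912 with 1 library left out, where the lone library is assumed to vary like the other group. With a replicate block from the titles they were 1035 and 1740; the same-numbered libraries did not deviate together over regions (r = -0.03). The descriptions number the donor Treg libraries 2 and 3, so the titles' numbers may not pair the libraries. The difference in carried share of the donor Treg regions, 59.7 percentage points, was 44.5 with equal list lengths (exact permutation p = 0.0357), 69.3 without iTreg (exact permutation p = 0.0667) and 55.2 to 63.9 without single libraries (p 0.0476 to 0.143). That of the donor Tconv regions was -54.7 with equal list lengths (exact permutation p = 0.0357), -57.2 without iTreg (exact permutation p = 0.0667) and -51.4 to -23.9 without single libraries (p 0.0952 to 0.857), against -37.6 with all. The width difference of wider regions was 0.45 without iTreg (exact permutation p = 0.0667) and 0.31 to 0.39 without single libraries (p 0.0476 to 0.143); these alternatives were chosen after seeing the data. Fewer libraries raise the smallest p. The share of donor Tconv regions within 1 kb of a gene end was 8.05% with equal list lengths. The Treg core net of 5 turned to -3 within 10 kb of a gene end and to -2 without Il2ra and Lrrc32, an alternative also chosen after seeing the data. With equal list lengths the net turned to 2 for interleukin-2 and STAT5 genes, 8 for costimulation, 1 for T cell receptor induced genes and 1 for the cofactors of Foxp3; the cause was not tested. Of the values of the named width regions under alternatives, 126 kept their call, 31 lost it and 0 reversed.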
